A study of Mus musculus with 14 samples.

Results

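The methionine cycle, the polyamine pathway and the arginine methyltransferase Prmt5 were followed through 10 genes, taken by name from the 46959 gene entries of the count table: Mat2a, Mat2b, Mtr and Ahcy of the methionine cycle, Odc1, Srm, Sms, Amd1 and Sat1 of polyamine metabolism, and Prmt5. All 10 were found and all 10 passed the filter on low counts. RNA sequencing covered 14 libraries from the Eµ-Myc model of mouse lymphoma, where the immunoglobulin heavy chain enhancer Eµ drives Myc in B-lineage cells. There were 12 cultured lines of malignant B cells, each from a different Eµ-MycTg/+ mouse (115, 136, 309, 504, 505, 506, 517, 524, 549, 649, 688 and 801), labelled WT beyond the transgene, untreated, and grown for 24 h with 0.37 mM L-asparagine added to the medium. The other 2 libraries were lymph node lymphomas, also labelled WT, formed by line 506 in wild-type C57BL/6 mice that were given ASNase (L-asparaginase, which breaks down asparagine) or, as vehicle, NaCl 0.9% from day 7 after injection until disease endpoint. The labels give no age for these mice, and each line and each treatment had 1 library.

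Methionine is made into S-adenosylmethionine, the methyl donor of the cell, by methionine adenosyltransferase. After a methyl group is passed on, S-adenosylhomocysteine is left, which is split to homocysteine and turned back into methionine. The polyamines putrescine, spermidine and spermine are built from ornithine and from decarboxylated S-adenosylmethionine, and their synthesis is high in proliferating cells and in MYC-driven tumours. The by-product of that synthesis, methylthioadenosine, is cleared by the phosphorylase Mtap, and it inhibits the methyltransferase Prmt5 when it builds up. The gene Mtap lies beside Cdkn2a, and both are often lost together in tumours.

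Total counts per library ran from 24597230 to 32614751, and 3 counts, the level that a count of 0 allows, stood for at most 0.124 CPM (counts per 1e6 library counts, here scaled by the trimmed mean of M values, TMM). The 8 B lineage markers summed to 2224 to 3395 CPM over the lines, against 3473 and 2674 CPM in the vehicle and ASNase tumours. The lymphomas also held host cell transcripts. In them 7 of 8 macrophage, 7 of 7 fibroblast, 3 of 5 endothelial and 5 of 6 T cell markers were higher by edgeR, where 13.4% of all genes were. The macrophage markers summed to 2.80 to 63.1 CPM over the lines, against 210.1 and 459 CPM in the vehicle and ASNase tumours, and the fibroblast markers to at most 2.04 CPM over the lines, against 819 and 2101 CPM. The endothelial markers summed to 31.3 to 155 CPM over the lines, against 239 and 164 CPM in the vehicle and ASNase tumours, and the T cell markers to at most 1.43 CPM over the lines, against 37.0 and 7.25 CPM. C1qa, C1qb, Pdgfra, Dcn, Cd3e and Cd4 were at 0 in all 12 lines. Such markers entered the test only through their counts in the tumours and could only be called higher. The counts of called markers are therefore a description and no separate support. In bulk samples like these, fewer cells of a type and less RNA per cell cannot be told apart.

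Per kilobase of counted exon, the spermidine synthase Srm and the ornithine decarboxylase Odc1 were the most abundant of the 10 in culture. They were at 281 ± 73.2 and 279.5 ± 74.2 CPM per kb (SD, n = 12), with means closer together than these SDs. Mat2a (132 ± 13.7) and Ahcy (131 ± 24.1) followed in CPM per kb, again within each other's spread, then Amd1 (60.9 ± 9.74) and Prmt5 (58.3 ± 7.51), then Sms (21.3 ± 3.92), Mtr (18.7 ± 4.94), Mat2b (16.4 ± 2.13) and Sat1 (9.04 ± 4.59, all SD, n = 12). The gap from the Ahcy level to the Amd1 level and that from Prmt5 to Sms were wider than these SDs. Sms, Mtr and Mat2b lay within the spread of their neighbours, and the step from Mat2b to Sat1 was wider than either SD. All these SDs are between lines, and differences between genes within a line were not tested.

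Some of these levels rest on reads that near-identical copies can share. Of all 75-base windows in the longest coding transcript (GENCODE M21), 81.9% for Amd1 and 74.4% for Ahcy also occurred in a transcript of another gene, mainly the single-exon copies Amd2 and Gm4737. The share was 30.5% for Odc1, 28.2% for Sms, 2.67% for Sat1, 1.84% for Mat2a and 0 for Mat2b, Mtr, Srm and Prmt5. The deposited table gave Amd2 between 0.390 and 0.460 counts, and Gm4737 between 0.182 and 0.228 counts, for each count of Amd1 and Ahcy, so the levels of Amd1 and Ahcy are uncertain while the ratio of copy to gene was similar in all 14 libraries.

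**Figure D1:**
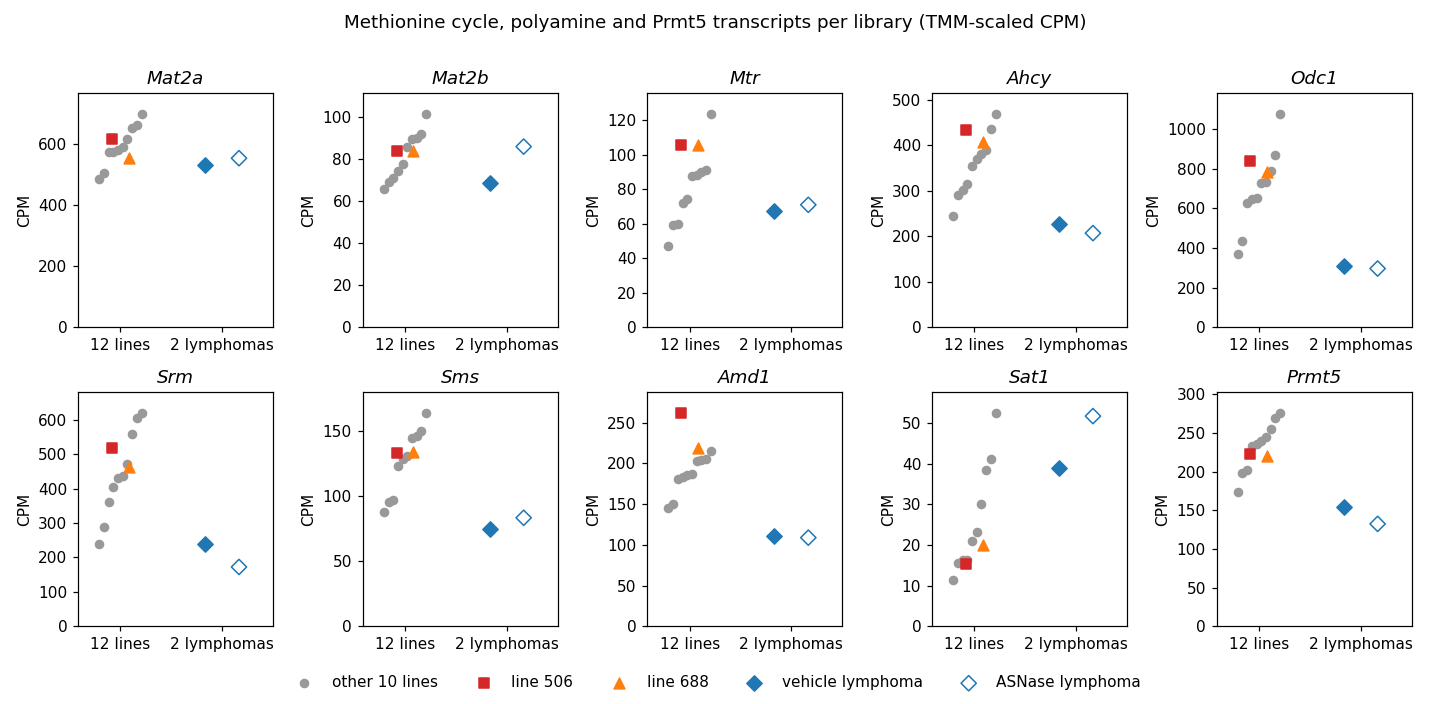
Level of each of the 10 genes in CPM (vertical axes, from 0) in the 12 cultured lines and the 2 lymphomas, 1 point per library, with lines 506 and 688 marked. For Ahcy, Odc1, Srm, Sms, Amd1 and Prmt5 both lymphomas lie below all 12 lines. Amd1 is highest in line 506, followed by line 688, which lies only just above line 504.

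The comparison of tumours in the lymph node with cells in culture showed lower polyamine synthesis transcripts, lower Ahcy and lower Prmt5 in the lymphomas, while the genes that make S-adenosylmethionine were not called. Of the 10 genes, 6 fell and 0 rose at an adjusted p under 0.05 (edgeR quasi-likelihood test, Benjamini-Hochberg over 17450 genes), against a background of 11.1% of all genes called lower and 13.4% called higher. The 6 were Odc1, Srm, Sms, Amd1, Ahcy and Prmt5. The same 6 of 10 lay below all 12 lines in both lymphomas, as did 12.5% of all genes tested. The median log2 ratio was -0.69 over the 10 genes and -0.0079 over all genes. The genes tested included some with 0 counts in all lines, such as C1qa, which could not fall. The shares over all genes thus cover genes unlike these 10.

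This count rested on both lymphomas. It was 1 (Prmt5) without the vehicle lymphoma and 0 without the ASNase lymphoma, and the lone tumour was then assumed to vary as the lines do. The median log2 ratio of the 10 genes was -0.71 and -0.64 in these fits, beside -0.69 with both tumours. Line 506 gave rise to both, and they share that origin. With line 506 left out of the lines 5 genes fell, and Sms, just above the threshold, was the one lost. Scaling to total counts left 3 calls (Odc1, Srm and Amd1), and a filter of 10 CPM in 2 libraries left 4. With that filter the median log2 ratio was -0.54 over the 10 genes and -0.066 over all genes kept. Of the 10, 7 lay below the median of all genes, in place of 9 with the main filter. Scaling to the B lineage markers left 0, with adjusted p by edgeR between 0.0544 for Srm and 0.0867 for Ahcy. That scaling uses the geometric mean of the 8 marker counts, and 1 of them, Ms4a1, varied widely. Ms4a1 had 0 counts in line 504, 22 in line 506 and 15218 in line 524, and 2836 and 816 in the vehicle and ASNase lymphomas. Its part in the result was not tested. The median log2 ratio of all genes was 0.21 with total counts and -0.66 with the B lineage markers. Measured from that median, the median of the 10 genes was -0.69 in both. A change of scaling moves all genes nearly alike, so this value was set in advance and is no check of the fall.

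Most, but not all, of a list of cell division transcripts were lower in the same tumours. Of 12 proliferation genes 10 fell, where 11.1% of all genes did, and 6 did without the vehicle tumour, 4 without the ASNase tumour and 5 with B lineage scaling. Mki67, a marker of cycling cells named after its values were seen, went the other way, at 1076 CPM with vehicle and 1489 CPM with ASNase against a median of 813 CPM over the lines (log2 ratio 0.58, SE 0.22, adjusted p = 0.0678 by edgeR). The summed level of the 12 was 5116 to 6821 CPM over the lines, against 3905 and 4224 CPM in the vehicle and ASNase tumours. Myc stood at 1400 CPM with vehicle and 1233 CPM with ASNase, within the 478 to 2785 CPM of the lines. It was not called (log2 ratio -0.42, SE 0.48, adjusted p = 0.574 by edgeR). The part of Myc, of cell division and of the host cells in the result was not tested.

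Odc1 makes putrescine from ornithine and is the rate-limiting, textbook MYC-induced step of the pathway (GRCm38, chromosome 12, 17544873 to 17551502, plus strand). In the lines it ran from 370.3 CPM (line 504) over a median of 730.2 to 1075 CPM (line 115), and it stood at 309 CPM in the vehicle and 296 CPM in the ASNase lymphoma. Both tumours were below the lowest line (log2 ratio -1.24, SE 0.33, adjusted p = 0.0159 by edgeR). The call was lost without the vehicle (adjusted p = 0.0884) or the ASNase lymphoma (0.102).

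Srm adds an aminopropyl group to putrescine to give spermidine (chromosome 4, 148591503 to 148594993, plus strand). Its lowest, median and highest levels in the lines were 240.0, 450.4 and 618 CPM. The vehicle lymphoma, at 239.6 CPM, was almost level with line 504, the lowest line, and the ASNase lymphoma was lower, at 172 CPM. The fall was called (log2 ratio -1.15, SE 0.32, adjusted p = 0.0196 by edgeR) and was lost without the vehicle (0.0631) or the ASNase lymphoma (0.199).

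Sms, the spermine synthase, on the X chromosome (157443855 to 157492287, minus strand), ranged over the lines from 87.7 CPM in line 649 to 164 CPM in line 505, with a median of 132 CPM. It stood at 75.1 CPM in the vehicle and 83.5 CPM in the ASNase lymphoma, just under the lowest line (log2 ratio -0.69, SE 0.22, adjusted p = 0.0351 by edgeR). Its call was lost without either tumour (adjusted p = 0.212 and 0.115 without the vehicle and the ASNase lymphoma).

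Amd1 decarboxylates S-adenosylmethionine and so supplies the aminopropyl groups that Srm and Sms use (chromosome 10, 40287458 to 40302188, minus strand). It ran from 145 CPM in line 115 over a median of 195 to 262 CPM in line 506, and stood at 110.3 CPM with vehicle and 109 CPM with ASNase. The log2 ratio was -0.83 (SE 0.19, adjusted p = 0.00683 by edgeR). The call was lost without the vehicle (adjusted p = 0.0530) or the ASNase lymphoma (0.0596). The copy Amd2 had a log2 ratio of -0.78 (SE 0.18, adjusted p = 0.00685 by edgeR) and was not called without the vehicle tumour. It holds 79.6% of the 75-base windows of Amd1, so reads can be shared and it is no separate measure. The summed counts of Amd1 and Amd2 gave -0.82.

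Sat1 acetylates spermidine and spermine and so starts their breakdown and export (X chromosome, 155213132 to 155216449, minus strand). It was the one gene of the 10 with a positive fold change. Its lowest, median and highest levels in the lines were 11.3, 20.5 and 52.4 CPM, and it was at 39.0 CPM in the vehicle and 51.7 CPM in the ASNase lymphoma, above 10 and 11 of the 12 lines. This overlap with the lines went with a wide error, and the difference was not called (log2 ratio 0.84, SE 0.47, adjusted p = 0.213 by edgeR).

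The upstream regions of Sms and Odc1 are shown because 1 start of Sms has the only MYC E-box found among these genes. Odc1, the textbook MYC target, has none. RefSeq promoters (GRCm38.p6) were matched for 9 of the 10 genes, in 10 entries, since Sms has more than 1 start, and Srm was not among them. The 250 bases before each start were searched on both strands for CACGTG, the E-box of MYC and MAX, for CCAAT, the box bound by NF-Y, for TATAAA, the TATA box, and for TGACGTCA, the cAMP response element. CACGTG occurred in 1 of the 10 entries, in the Sms promoter at chrX:157492288-157492537 on the minus strand, with its first base 196 bases before the start, and in 6.02% of all 32851 promoters. No match says only that these letters are not in this window. This Sms entry carries a CACGTG and a CCAAT, in capitals, and is the Sms sequence shown. The other Sms entry, at chrX:157491369-157491618, carries none of the motifs and is not shown. The promoter of Odc1, at chr12:17544623-17544872 on the plus strand, also carries none of the motifs, so it is all in lower case.
Sms: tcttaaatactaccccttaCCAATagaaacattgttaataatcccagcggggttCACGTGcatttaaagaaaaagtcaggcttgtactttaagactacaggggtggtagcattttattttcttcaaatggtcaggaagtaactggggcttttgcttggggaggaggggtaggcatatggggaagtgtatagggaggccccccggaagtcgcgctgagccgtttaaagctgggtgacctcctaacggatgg
Odc1: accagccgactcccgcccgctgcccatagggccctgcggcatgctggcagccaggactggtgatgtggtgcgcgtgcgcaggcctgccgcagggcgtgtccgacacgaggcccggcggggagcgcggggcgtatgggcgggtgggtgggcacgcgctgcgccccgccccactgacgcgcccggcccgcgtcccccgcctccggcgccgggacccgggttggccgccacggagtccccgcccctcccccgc

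In the methionine cycle 1 step of 3 was called between the tumours and the lines. Ahcy, which removes S-adenosylhomocysteine, an inhibitor of methyltransferases (chromosome 2, 155059310 to 155074497, minus strand), ran from 244 CPM in line 524 over a median of 376 to 469 CPM in line 309. It stood at 227 CPM with vehicle and 207 CPM with ASNase (log2 ratio -0.76, SE 0.22, adjusted p = 0.0236 by edgeR). The call was lost without the vehicle (adjusted p = 0.0948) or the ASNase lymphoma (0.152) and with total-count scaling (0.0792). Together with its copy Gm4737 the log2 ratio of the means was -0.72.

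Mat2a, the catalytic subunit of the methionine adenosyltransferase of most tissues (chromosome 6, 72432799 to 72439558, minus strand), was not called. It ran from 486 CPM (line 517) over 585 to 696 CPM (line 649) in the lines and stood at 529.9 CPM with vehicle and 553 CPM with ASNase, both above 2 of the 12 lines (log2 ratio -0.13, SE 0.13, adjusted p = 0.515 by edgeR). Its direction turned with total-count scaling (0.10). Mat2b, the regulatory subunit (chromosome 11, 40679314 to 40695203, minus strand), ran from 65.6 over 83.8 to 101 CPM and stood at 68.6 and 85.9 CPM, within the range of the lines (log2 ratio -0.09, SE 0.15, adjusted p = 0.704 by edgeR, and 0.13 on the log2 scale with total counts). Mtr, the methionine synthase that remakes methionine from homocysteine with a folate (chromosome 13, 12186542 to 12258113, minus strand), ran from 47.1 CPM (line 801) over 88.0 to 123 CPM (line 649) and stood at 67.1 and 70.9 CPM (log2 ratio -0.28, SE 0.29, adjusted p = 0.536 by edgeR).

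Prmt5, which places symmetric dimethyl marks on arginines of histones and splicing proteins (chromosome 14, 54507187 to 54517525, minus strand), was lower in both tumours. Its lowest, median and highest levels in the lines were 174 (line 524), 234 and 276 CPM (line 115), and it was at 154 CPM in the vehicle and 132 CPM in the ASNase lymphoma. No line reached down to these levels (log2 ratio -0.69, SE 0.16, adjusted p = 0.00709 by edgeR). The call was kept without the vehicle lymphoma (adjusted p = 0.0334) and lost without the ASNase lymphoma (0.0996) and with total-count scaling (0.0680).

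The Prmt5 promoter, at chr14:54517471-54517720 on the minus strand, is shown because it held 4 CCAAT letters, counted on both strands, with first bases 206, 103, 87 and 46 bases before the start. They are in capitals, as ATTGG where the match is on the other strand. CCAAT occurred in 6 of the 10 promoter entries (Ahcy, Mat2a, Mat2b, Mtr, Prmt5 and Sms) and in 33.8% of all promoters, and 4 or more in 0.84% of all. TATAAA occurred in 1 of the 10 entries (Mat2a) and in 12.4% of all, and TGACGTCA in 0 of the 10 and in 1.55% of all. A match is a description of the letters.
Prmt5: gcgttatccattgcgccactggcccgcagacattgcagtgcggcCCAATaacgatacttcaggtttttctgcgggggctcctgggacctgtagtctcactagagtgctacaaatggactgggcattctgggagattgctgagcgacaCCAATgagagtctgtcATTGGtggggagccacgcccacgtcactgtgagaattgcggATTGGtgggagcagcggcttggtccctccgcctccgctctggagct

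**Figure D2:**
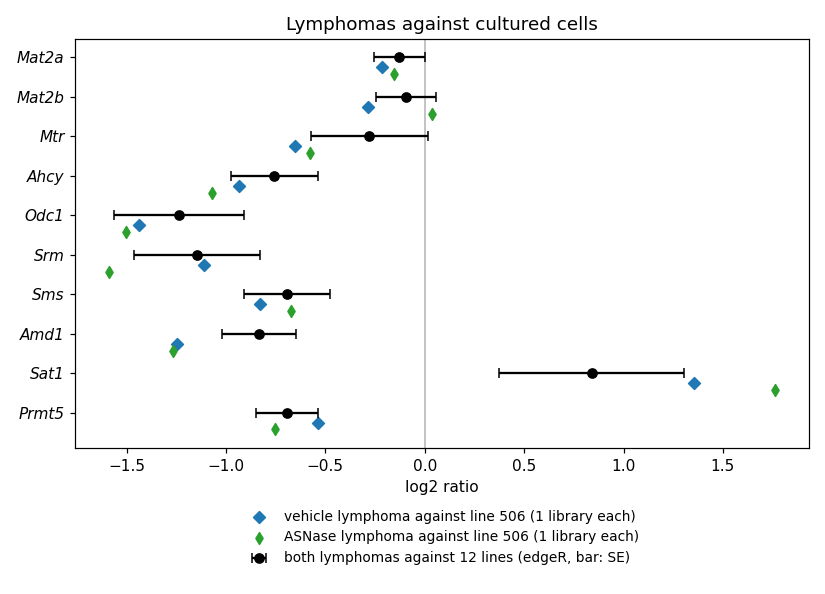
Log2 ratio (horizontal axis) of each gene in both lymphomas against the 12 lines with its SE as a bar (black circles), and in each lymphoma against line 506 in culture (diamonds, 1 library each). Odc1, Srm, Amd1, Ahcy, Sms and Prmt5 lie left of 0 in every comparison drawn, and Sat1 lies right of it.

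Other genes of these pathways behaved in different ways. In the list of 20 methionine cycle, folate and salvage genes, 17 were tested, of which 5 fell and 1 rose, where 11.1% and 13.4% of all genes did, with a median log2 ratio of -0.51. With total counts 2 fell and 2 rose, and with B lineage scaling 3 fell and 0 rose. Mthfd1 and Shmt1, which handle folate one-carbon units, fell (log2 ratios -1.06 and -1.04, SE 0.20 and 0.22, adjusted p = 0.00221 and 0.00503 by edgeR), Shmt1 not without the ASNase tumour (0.0642). Mettl16, which regulates Mat2a mRNA through methylation, fell, with 129 ± 29.8 CPM over the lines (SD, n = 12), 81.6 CPM in the vehicle tumour and 53.6 CPM in the ASNase tumour (adjusted p = 0.0256 by edgeR), which did not pass without the ASNase (0.297) or the vehicle (0.0588) tumour. The rest of the called genes, named after their values were seen, act in the salvage route that begins with Mtap. Enoph1 and Adi1 fell (adjusted p = 0.0285 and 0.0466 by edgeR) and Mri1 rose (0.0369), though it stood at -0.17 on the log2 scale with B lineage scaling. Each of these 3 lost its call without the vehicle lymphoma (0.158, 0.227 and 0.585), Enoph1 and Adi1 also without the ASNase lymphoma (0.122 and 0.162), and Adi1 and Mri1 without line 506 (0.0620 and 0.0546).

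Of 19 other polyamine genes 18 were tested, with 3 lower and 2 higher and a median of -0.25, shares near those of all genes (11.1% and 13.4%). With B lineage scaling 0 were called in either direction, and with the 10 CPM filter 2 were lower and 0 higher. Besides Amd2, which can share reads with Amd1 and is no separate measure, Dohh and Eif5a fell. Dohh completes hypusine, a residue made from spermidine, and Eif5a is the translation factor that carries it. Dohh was at 75.6 ± 12.1 CPM (SD, n = 12) over the lines, against 49.8 and 38.4 CPM in the vehicle and ASNase tumours (adjusted p = 0.00997 by edgeR, and 0.152 without the ASNase lymphoma). Eif5a, named after its values were seen, went from 2168 ± 457 CPM (SD, n = 12) to 1264 and 1059 CPM (adjusted p = 0.0293 by edgeR, lost without the vehicle lymphoma, 0.0977, or the ASNase lymphoma, 0.204). The higher genes were scarce. Sat2 had 4 counts over all lines and 7 and 11 counts in the vehicle and ASNase tumours, and Azin2, named after its values were seen, had 26 counts over all lines and 26 and 32 counts. Both had so few counts in the lines that a fall could hardly have been called. The antizyme Oaz1, which targets Odc1 protein for degradation, was not called, at 394 ± 35.1 CPM (SD, n = 12) over the lines, against 362 and 279 CPM in the lymphomas (adjusted p = 0.0675 by edgeR).

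In the list of arginine methyltransferases, Prmt5 partners and substrates 15 of 17 genes were tested, with 4 lower and 0 higher and a median of -0.32, where 11.1% of all genes were lower and 13.4% higher. With B lineage scaling 1 was lower. The spliceosomal Sm proteins Snrpd3 and Snrpb fell (log2 ratios -0.95 and -0.74, SE 0.15 and 0.14, adjusted p = 0.000871 and 0.00285 by edgeR), as did the Prmt5 adaptor Clns1a (-0.87, SE 0.18, 0.00385) and Snrpd1, named after its values were seen (-0.83, SE 0.18, 0.00547). Without the ASNase lymphoma only Snrpd3 of these 4 was called. Wdr77, the obligate partner of Prmt5, was not called, nor were Riok1, Coprs and Lsm4 of the same list (adjusted p = 0.377, 0.0611 and 0.257 by edgeR, named after their values were seen). Wdr77 was at 126 ± 29.8 CPM (SD, n = 12) over the lines, against 101 and 90.6 CPM in the vehicle and ASNase tumours (log2 ratio -0.40, SE 0.27, adjusted p = 0.328 by edgeR). Prmt1 stood at only 1.05 ± 0.255 CPM in the lines (SD, n = 12). Of its exon bases 78% are shared with another entry on the same strand that had 0 counts, so its level is uncertain.

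Set against the line that formed the tumours, Odc1, Srm and Amd1 were again lower and Sat1 was higher. These are single libraries, compared by size with exact binomial 95% intervals that cover counting error only, and both comparisons share line 506. At least a 2-fold difference with 5 CPM in either library was seen for 4 of the 10 genes in the vehicle lymphoma, where 29.8% of all genes passed (17.6% higher, 12.2% lower), and for 5 of the 10 in the ASNase lymphoma, where 28.6% did (16.5% higher, 12.0% lower). Odc1 was 0.369-fold (0.361 to 0.378) as abundant in the vehicle and 0.353-fold (0.345 to 0.362) in the ASNase lymphoma as in line 506. Srm was 0.462-fold (0.450 to 0.476) and 0.332-fold (0.322 to 0.343), and Amd1 0.422-fold (0.405 to 0.439) and 0.416-fold (0.399 to 0.434). Ahcy, at 0.523-fold (0.508 to 0.538) and 0.476-fold (0.462 to 0.491), passed only in the ASNase lymphoma. Sat1 was 2.56-fold (2.30 to 2.86) and 3.39-fold (3.05 to 3.78) higher, from 15.2 CPM in line 506. With total counts 2 and 3 of the 10 genes passed. With B lineage scaling, which lowers every ratio and takes in Ms4a1 at only 22 counts in line 506, 9 and 8 did. Sat1 then stood at 1.18-fold in the vehicle and 2.05-fold in the ASNase lymphoma, so that its vehicle value no longer passed.

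Between the tumours, which were compared to ask what ASNase changed, 0 of the 10 genes passed the 2-fold rule, as against 4.69% of all genes (2.70% higher and 1.99% lower), and with 1 library each no difference has a replicate check. Srm was lowest relative to vehicle, at 0.718-fold (exact binomial 95% interval 0.693 to 0.744), and Prmt5 was 0.861-fold (0.825 to 0.898). Sat1 was 1.32-fold (1.23 to 1.43) and Mat2b 1.25-fold (1.18 to 1.33) as abundant in the ASNase as in the vehicle lymphoma. Odc1, Amd1, Sms, Ahcy, Mtr and Mat2a lay between 0.911-fold (Ahcy) and 1.11-fold (Sms). These directions depend on the scaling. Set to the B lineage markers, Odc1, Ahcy, Prmt5 and Amd1 turned to 1.25-fold, 1.19-fold, 1.12-fold and 1.29-fold, and Srm stood at 0.938-fold. Ms4a1, 1 of the 8 markers in that scaling, was at 91.3 CPM in the vehicle and 27.3 CPM in the ASNase lymphoma. How far it alone turned these directions was not tested.

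Lines 506 and 688 were set apart because they held at most 1 count of Mtap, the enzyme that clears the by-product of Srm and Sms (chromosome 4, 89137122 to 89181081, plus strand). Mtap had 1 count in line 506 and 0 in line 688, which allows up to 3 counts, whereas the other 10 lines had 1520 to 8741 counts, or 57.9 to 292 CPM. The tumours of line 506 had 84 counts (vehicle) and 48 counts (ASNase), or 2.70 and 1.60 CPM, beside the host cell transcripts given above. Cdkn2a had 0 counts in line 506 and 1 in line 688, but also only 1 in line 549, which had the lowest Mtap level of the other 10 lines, and Cdkn2b had 0 counts in lines 505, 506, 549 and 688.

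None of the 10 genes differed between lines 506 and 688 and the other 10 lines at an adjusted p under 0.05 (edgeR quasi-likelihood test over 14437 genes, 0 of 10, and 0 of 10 by DESeq2). At an unadjusted p under 0.05 by edgeR there was 1 of the 10, beside 678 of all 14437 genes. In all, edgeR called 1 gene, or 0.00693%, and that was Mtap, which chose the lines. The pair is set by a measured count and not by the labels. The intervals below are 95% intervals of the log2 ratio and show how large a difference this design leaves room for.

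Amd1 came closest. Lines 506 and 688 had its highest levels, 262 and 219 CPM, beside 145 to 216 CPM in the other 10 lines (log2 ratio 0.37, interval 0.05 to 0.69, unadjusted p = 0.0267, adjusted p = 0.814 by edgeR). Line 688 was only just above line 504, at 216 CPM. How many of all genes set these lines apart in this way was not counted. Its copy Amd2, which can share its reads and is no separate measure, gave 0.36 (adjusted p = 0.814 by edgeR). Without line 506 the ratio of Amd1 was 0.23 and without line 688 it was 0.49. Mtr came right behind line 649 in these lines, at 105.6 and 105.5 CPM (0.41, interval -0.17 to 1.00, adjusted p = 0.814 by edgeR).

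Prmt5 ranked 8th and 9th of 12, at 223 CPM in line 506 and 219.9 CPM in line 688, inside the 174 to 276 CPM of the other 10 lines (log2 ratio -0.07, interval -0.42 to 0.28, adjusted p = 0.947 by edgeR). Its partner Wdr77 was at 137 and 128 CPM, beside 126 ± 29.8 CPM over all 12 lines (SD, n = 12). Mat2a ranked 5th and 10th, at 616 and 554 CPM (-0.02, interval -0.31 to 0.28, adjusted p = 0.984 by edgeR), and Mat2b 7th and 6th, at 83.8 and 83.9 CPM (0.04, interval -0.29 to 0.38, adjusted p = 0.969 by edgeR).

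Ahcy ranked 3rd and 4th, at 434 and 408 CPM (0.25, interval -0.18 to 0.67). Odc1 ranked 3rd and 5th, at 838 and 785 CPM (0.23, interval -0.43 to 0.89), Srm 4th and 6th, at 518 and 464 CPM (0.15, interval -0.51 to 0.81), and Sms 6th and 5th, at 133 and 134 CPM (0.07, interval -0.40 to 0.54). Sat1 ranked 11th and 7th, at 15.2 and 20.02 CPM (-0.59, interval -1.71 to 0.54). The median log2 ratio was 0.11 over the 10 genes and -0.07 over all genes. Of the wider lists, edgeR called no gene besides Mtap. The smallest unadjusted p after Mtap and Amd2 belonged to Prmt2, an arginine methyltransferase at 0.170 CPM in line 506 and 0 counts in line 688 (p = 0.0244, adjusted p = 0.814 by edgeR).

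**Figure D3:**
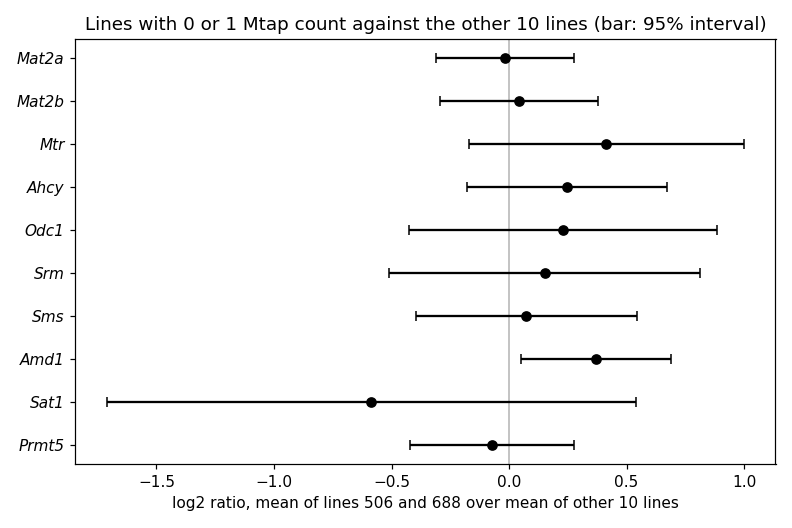
Log2 ratio (horizontal axis) of the mean of lines 506 and 688 over the mean of the other 10 lines for each gene, with 95% intervals from edgeR. The interval of Amd1, 0.05 to 0.69, is the one that leaves out 0 before adjustment over all genes, and those of Prmt5 and Mat2a are centred near 0.

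Among the 12 lines, all grown alike, the genes that make S-adenosylmethionine and Prmt5 varied least and Sat1 varied most. The SD of log2 CPM was 0.15 for Mat2a, 0.19 for Mat2b and 0.19 for Prmt5, and 4.88%, 12.2% and 13.1% of 8586 expressed genes (mean log2 CPM of at least 3) had a smaller one. It was 0.42 for Odc1, 0.41 for Srm and 0.40 for Mtr, where 70.5%, 69.0% and 67.4% of genes had a smaller SD. Sat1, at 0.68 (88.1%), was 4.63-fold higher in line 524 than in line 649. The median SD was 0.28 over the 10 genes and 0.32 over the expressed genes.

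Since Odc1 and Srm are known targets of MYC, each gene was tested for a slope on the log2 level of Myc across the lines, where Myc ran from 478 CPM in line 504 to 2785 CPM in line 115. Of the 10 genes 1 passed, against 2.20% of all genes with a positive slope and 3.96% with a negative one (6.16% in either direction). This was Srm, with a slope of 0.49 per doubling of Myc (SE 0.11, adjusted p = 0.0233 by edgeR). Odc1 had a slope of 0.40 (SE 0.14, adjusted p = 0.108 by edgeR, DESeq2 adjusted p = 0.0324). The slope of Prmt5 was 0.12 (SE 0.08, adjusted p = 0.366 by edgeR) and that of Sat1 was -0.27 (SE 0.25, 0.564). The median was 0.07 over the 10 genes and 0.02 over all genes. Oaz2, an antizyme, had a negative slope of -0.57 (SE 0.11, adjusted p = 0.0177 by edgeR) and was the 1 gene called of 15 tested in the polyamine list. In the methionine and arginine methylation lists 0 of 17 and 0 of 15 were called. At an unadjusted p under 0.05 by edgeR these lists held 2 and 5 genes, beside 3351 of all 14437 genes.

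Line 504 had the lowest Myc, Odc1 and Srm, and the calls were lost without it. The slope of Srm was then 0.43, close to its value with all lines (adjusted p = 0.229 by edgeR), while that of Odc1 was 0.21 (0.651) and that of Oaz2 -0.29 (0.467). No gene of the 10 passed then, and 86 genes were called in all in place of 890. Line 524 had Odc1 and Srm at 434 and 288 CPM, the second lowest of the 12, beside 1793 CPM of Myc.

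**Figure D4:**
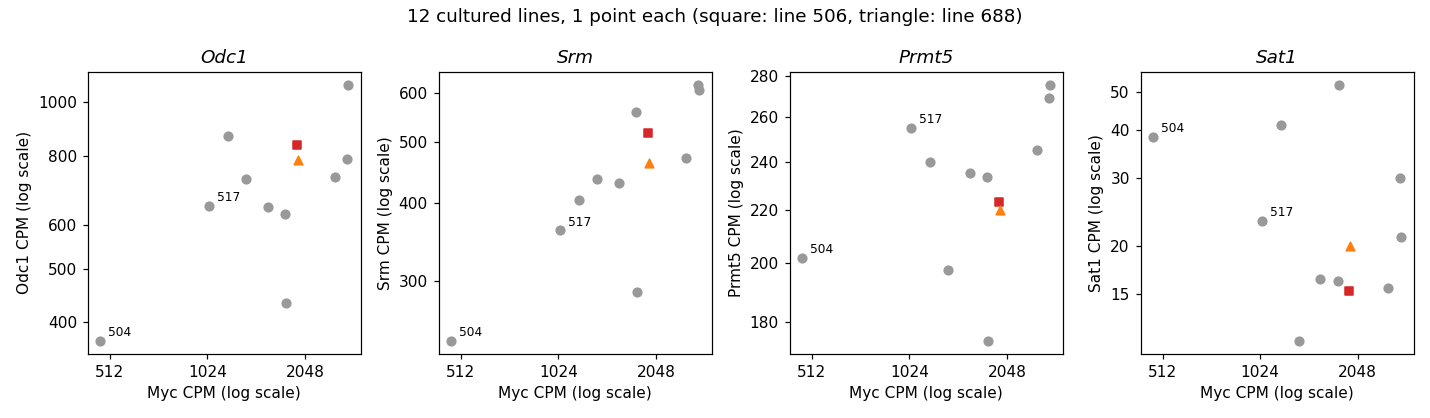
Level of Odc1, Srm, Prmt5 and Sat1 (vertical axes, CPM, log scale) against Myc (horizontal axes, CPM, log scale) in the 12 cultured lines, 1 point per line. Srm rises with Myc with line 504 at the low end, and the points of Sat1 show no such order.

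The genes whose levels over the 12 lines were most like those of the 10 were sought for Odc1, Srm, Mat2a and Prmt5 among 5595 genes, as a description with no test. For Srm they were Rnaseh2a, Supv3l1 and Atad3a (Pearson r of log2 CPM 0.97, 0.96 and 0.96, Spearman rho 0.95, 0.94 and 0.93, n = 12). For Prmt5 they were Ddx31, Elp5 and Drg2 (r 0.94, 0.93 and 0.93, rho 0.91, 0.82 and 0.84), and for Odc1 they were Csrp2, 1110004E09Rik and Ptcd3 (r 0.94, 0.93 and 0.92, rho 0.90, 0.78 and 0.85). For Mat2a the nearest were Taf4a, Dcaf8 and Rsrp1 (r 0.83, 0.80 and 0.78, rho 0.77, 0.77 and 0.74). All points share the same 12 libraries and their scaling.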

How the data were processed

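All values derive from 1 table of raw counts per gene for 14 libraries, deposited by the authors as whole-number counts without normalization, together with other per-gene entries such as exon length, per the file headers. RNA was read as stranded mRNA libraries with paired ends of 75 bases, per the labels' protocols. For alignment and counting, the submitters' processing notes name STAR (2.4.0), featureCounts (Subread, 1.5.0-p3) and the mouse build mm10, GRCm38. Whether counting used strand, and how reads with several matches were counted, was not given in the sources used here. All 14 columns were matched by title. The 100 spike-in and phage entries were left out of library sizes.

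Counts were analysed with edgeR 4.0.16 (filterByExpr, TMM, glmQLFit, glmQLFTest) and, as an alternative, DESeq2 1.42.0 (R 4.3.3). Figures used matplotlib 3.10.9 (Python 3.11.15). Fits ran over all genes, with Benjamini-Hochberg adjustment and a threshold of 0.05. The lymphoma fit has 3 groups and 11 residual degrees of freedom, all from the lines. P-values measure the spread between lines, 1 library each. Log2 CPM used a prior count of 2. The fits were tested on simulated counts, with changes planted in genes of any level that passed a filter. The lymphoma fit recovered 12.6% and 24.7% of planted log2 changes of 1 and 2. The fit of lines 506 and 688 recovered 29.3% and 80.2%, and the slope on Myc 74% and 92.7%. The lymphoma rates cover 17450 genes, at levels down to near 0 in the lines. The other rates cover 10698 genes under a stricter filter, where the fits on the real counts tested 14437. The rates cannot be compared with each other, and none is a rate for the 10 genes. A gene that was not called may thus still differ.

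The 10 genes and the lists were chosen with earlier results of these data known. Named genes are the 10, Mtap, Cdkn2a, Cdkn2b, Myc and 3 per list and comparison by smallest p. Other list genes are included where marked, or to give values for Oaz1, Wdr77, Prmt1 and line-like genes (3 each, mean log2 CPM of at least 5). Alternatives were the scaling, the filter on low counts, DESeq2 and leaving out libraries.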

Additional observations from a re-analysis of the deposited data

How the results depend on the processing

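Counts of calls changed by more than 1.5 times as follows. For lymphomas against lines 6 of the 10 genes were called, 3 with total counts, 0 with B lineage scaling and 0 to 1 without 1 lymphoma. Over all genes 4272 were called, 2014 with a filter of 10 CPM, 1674 with B lineage scaling and 1817 to 2013 without 1 lymphoma. The share of called genes that were higher was 54.8%, against 75.7% with total counts, 71.6% with B lineage scaling and 42.8% with the 10 CPM filter. For lines 506 and 688 the 0 of 10 did not change under any alternative run, while the 1 gene called overall became 2 with the 10 CPM filter, 123 with DESeq2 and 0 without line 506 or without line 688, where fewer samples enter. For the slope on Myc 1 of 10 became 2 with DESeq2, 0 without line 504 (chosen after seeing the data) and 0 without lines 504 and 517, the 2 farthest from the median. Over all genes 890 became 2082, 86 and 51. Between the lymphomas 495 genes passed 2-fold, 881 with B lineage scaling, and 1133 and 192 with floors of 1 and 20 CPM. Against line 506, 4 (vehicle) and 5 (ASNase) of the 10 genes passed, 2 and 3 with total counts, and 9 and 8 with B lineage scaling, where 7072 and 5609 genes passed over the whole table in place of 3122 and 3004. The cause of these shifts was not tested unless given.

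Directions turned only for values that were not called, except Mri1, called higher in the lymphomas and at -0.17 with B lineage scaling. On the log2 scale, Mat2a in the lymphomas turned to 0.096 (total counts) and 0.021 (10 CPM filter), and Mat2b to 0.13 and 0.057, with a range of -0.26 to 0.070 without 1 lymphoma. For lines 506 and 688, Mat2a ran from -0.10 to 0.054 without 1 of them, and with total counts Mat2b turned to -0.054 and Sms to -0.020. For the slope on Myc, Mat2a turned to -0.010 (total counts), -0.0013 (no filter), -0.14 (without lines 504 and 517) and -0.012 (without line 504). In these last settings Mtr turned to -0.25 and -0.016, Amd1 to 0.071 and 0.055, and Mtap to 0.26 and 0.026, and Cdkn2a turned to -0.35 without line 504. Ahcy turned to -0.0013 with DESeq2's size factors, -0.025 with total counts, -0.016 with no filter, -0.0025 with DESeq2 and -0.029 without lines 504 and 517. No paired analysis was possible because each lymphoma group holds 1 library and the replicate numbers, given in accession order, pair no samples.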
